A study of Rattus norvegicus with 6 samples.

Results

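The cell cycle and DNA replication genes were 35 genes listed by symbol, and 33 of them had at least 1 probe set of their own on the array, out of 14217 genes measured in all. They were compared between spinal cultures grown on polyornithine (control) and on carbon nanotubes (CNT). Total RNA was taken after 8 days in vitro from 3 control and 3 CNT cultures, each a biological replicate by its label and each hybridized to 1 Affymetrix rat array. The cells came from dissociated spinal cords of rats at P1 to P4 and were plated on glass coverslips that carried either coating, and the medium of both groups held horse serum and nerve growth factor. The labels give the strain as Sprague-Dawley, whereas the methods of the study name Wistar rats. No cell was selected, so neurons, glia, microglia and connective tissue cells shared each RNA sample, and fewer cycling cells cannot be told apart from less cell cycle RNA per cycling cell. Tpx2, which activates Aurora A on the spindle, has no probe set paired with it here, and both probe sets of Rrm2, a subunit of ribonucleotide reductase, are shared with Rrm2l1. These 2 genes were left out of all counts.

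A dividing cell passes from G1 into S phase, where it copies its DNA, and then through G2 into mitosis. Cyclin D and cyclin E with their kinases release E2F transcription factors, which turn on the genes of the replication machinery and of nucleotide synthesis. Later, the MuvB complex with B-Myb and FoxM1 switches on genes of mitosis. Many of these genes carry CCAAT boxes and a cell cycle homology region (CHR) close to the gene start. Neurons have left the cycle, so these transcripts would come mostly from other cells, such as glia, their precursors, microglia and connective tissue cells. Which cells gave them in these cultures was not tested.

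The upstream regions of 5 genes are printed because they stand for the patterns described further on. Mcm6 is an S phase gene and Cdk1 a mitotic gene that were both highest in control 3 and CNT 3, Ccnb2 is a mitotic gene that was highest in CNT 3, and Plk1 and Cdc20 are mitotic genes that were lowest in these cultures. Each sequence holds the 250 bases before the gene start in the RefSeq annotation of GRCr8, written 5' to 3' on the strand of the gene. Capitals mark every match to the motifs that were searched. For the CCAAT box these were the letters that give it its name. The letters searched for the cell cycle homology region were TTTGAA, and the variant of this region with A in place of G, TTTAAA, was counted with it. The letters searched for the E2F motif were TTCCCGC, and another form of this motif that was counted as well was TTGGCGC. Both strands were searched, so reverse complements are marked too.
Mcm6 (chr13:42404353-42404602, - strand): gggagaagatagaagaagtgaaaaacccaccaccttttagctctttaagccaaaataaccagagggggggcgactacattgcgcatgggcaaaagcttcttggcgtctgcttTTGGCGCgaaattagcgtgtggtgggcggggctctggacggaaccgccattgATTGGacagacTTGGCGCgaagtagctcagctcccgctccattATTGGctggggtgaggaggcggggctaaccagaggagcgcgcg
Cdk1 (chr20:19265043-19265292, + strand): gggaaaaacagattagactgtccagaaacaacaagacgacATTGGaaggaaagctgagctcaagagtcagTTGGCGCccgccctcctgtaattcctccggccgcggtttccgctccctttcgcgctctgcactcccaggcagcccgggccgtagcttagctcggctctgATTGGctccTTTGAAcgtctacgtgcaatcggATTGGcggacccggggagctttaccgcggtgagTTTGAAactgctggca
Ccnb2 (chr8:79981659-79981908, - strand): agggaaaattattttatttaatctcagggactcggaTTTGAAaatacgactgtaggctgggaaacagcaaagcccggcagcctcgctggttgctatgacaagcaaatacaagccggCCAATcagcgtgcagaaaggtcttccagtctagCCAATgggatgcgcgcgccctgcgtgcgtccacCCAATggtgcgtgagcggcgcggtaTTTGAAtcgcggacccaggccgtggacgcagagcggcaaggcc
Plk1 (chr1:186147408-186147657, + strand): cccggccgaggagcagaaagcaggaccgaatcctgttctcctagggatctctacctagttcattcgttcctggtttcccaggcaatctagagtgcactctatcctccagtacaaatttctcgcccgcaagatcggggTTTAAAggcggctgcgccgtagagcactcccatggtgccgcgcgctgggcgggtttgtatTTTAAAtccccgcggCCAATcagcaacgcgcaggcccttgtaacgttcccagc
Cdc20 (chr5:137255800-137256049, - strand): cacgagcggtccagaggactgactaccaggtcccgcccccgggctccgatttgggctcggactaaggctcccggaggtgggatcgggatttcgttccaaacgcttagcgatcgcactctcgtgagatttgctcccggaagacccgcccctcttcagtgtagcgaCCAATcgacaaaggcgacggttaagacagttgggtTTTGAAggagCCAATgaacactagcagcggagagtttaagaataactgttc
Of the 33 measured genes, 27 had an upstream region in the table. A CCAAT box was found in 21 of these 27 (77.8%), against 34.0% of all 33469 regions of the same length. A CHR was found in 17 (63.0%, against 25.4%), an E2F motif in 7 (25.9%, against 5.0%) and both a CCAAT box and a CHR in 14 (51.9%, against 9.04%). On the reverse strand the CCAAT box can share bases with an E2F motif, and such bases count for both motifs. Plk1 and Cdc20 had both a CCAAT box and a CHR, as did Cdk1 and Ccnb2. A match of letters is a description and not a binding site.

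The cell cycle genes did not separate CNT from control cultures. None of the 33 passed limma's test at an adjusted p of 0.05 in either direction. Of all genes 0% passed it, and the smallest adjusted p over all genes was 0.847. At an unadjusted p under 0.05 there were 0 of 33, against 3.12% of all genes (2.41% higher and 0.71% lower). In none of the 33 did all CNT arrays lie above or below all control arrays, against 7.99% of all genes (5.94% higher and 2.05% lower). The median log2 fold change of the 33 genes, CNT minus control, was 0.07, where that of all genes was 0.03. It was positive in 28 genes (84.8%, against 58.5% of all genes) and negative in 5, namely Prc1, Rrm1, Cenpf, Cdkn3 and Mcm4. The number of positive values moved with single cultures: it was 13 without CNT 3, 16 without control 2, 33 without CNT 1 and 17 with array weights, while 20 were positive when control 1 and CNT 2, which had the widest gap between 3' and 5' beta-actin signals, were both left out. The median over the members turned to -0.038 without CNT 3 and to -0.0090 without control 2, and was 0.20 both without CNT 1 and without control 3.

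**Figure D1:**
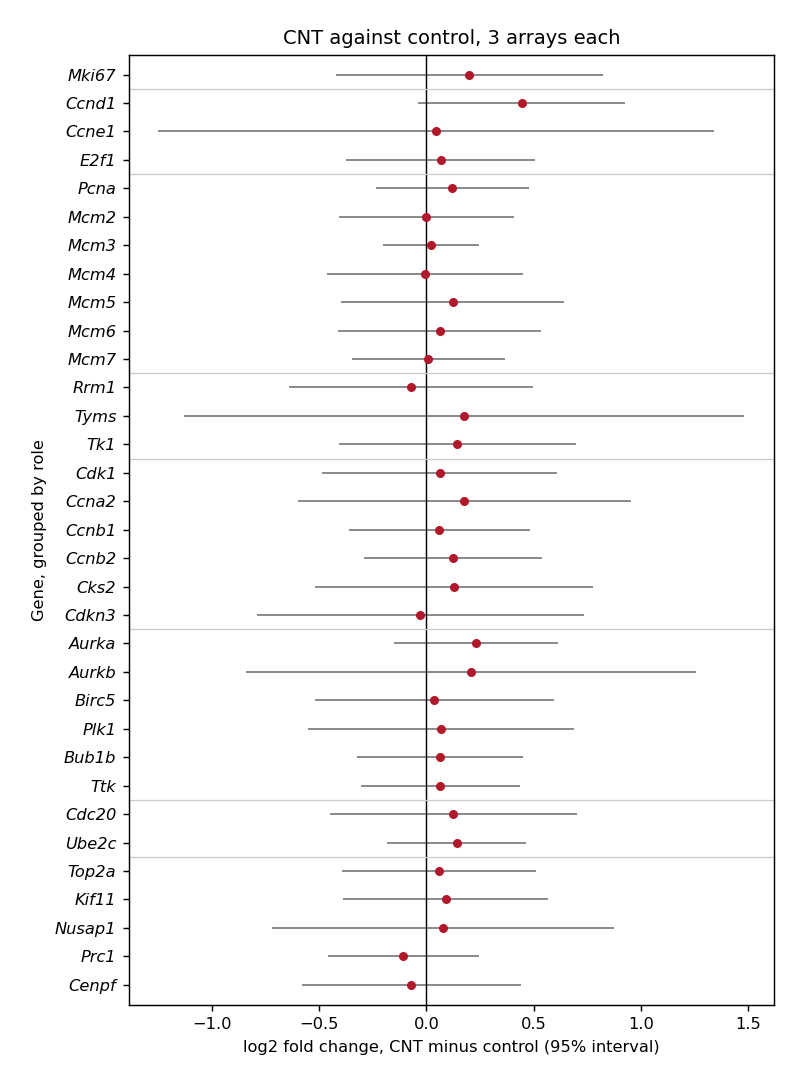
Log2 fold change (CNT minus control) of the 33 cell cycle genes from limma, grouped by role, with bars for the 95% interval (n = 3 arrays per group). All intervals include 0, those of Tyms and Ccne1 are the widest, and Ccnd1 has the highest estimate (0.44).

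The size of a difference that the arrays could have missed varied from gene to gene. The standard error of the log2 fold change ran from 0.09 for Mcm3 to 0.54 for Tyms, with a median of 0.20. The 95% interval lay within 1 log2 unit of 0 on both sides in 30 genes and went beyond it for 3, Ccne1 (-1.25 to 1.34), Tyms (-1.13 to 1.48) and Aurkb (-0.84 to 1.26). For the helicase gene Mcm3 the interval was -0.20 to 0.24, and for the replication clamp gene Pcna it was -0.24 to 0.48. In all 33 genes the 3 control cultures alone spanned more than the difference between the group means, which was so for 88.2% of all genes. The SD within groups had a median of 0.27 log2 over the 33 genes and of 0.19 over all genes, and 28 of the 33 lay above the latter.

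The level of these genes varied more between cultures on the same substrate than between substrates. The mean of the 33 genes, relative to its mean over the 6 arrays, was -0.09, -0.24 and 0.20 in control 1, 2 and 3 and -0.23, 0.10 and 0.26 in CNT 1, 2 and 3. Control 3 and CNT 3 were thus the highest of their groups, control 2 and CNT 1 the lowest, and the group means differed by 0.09 with an SD of 0.24 within groups. In 20 of the 33 genes control 3 and CNT 3 held the highest values of the 6 arrays, an order found in 11.5% of all genes. The same number, 20 of 33, had their lowest values in control 2 and CNT 1, against 11.3% of all genes. The order was noticed in these values, so the counts describe it and do not test it. With median centring 21 genes were highest in control 3 and CNT 3, and with quantile normalization 20. The highest value lay in CNT 3 for 14 genes, in control 3 for 9, in CNT 2 for 9 and in CNT 1 for 1. The lowest lay in control 2 for 12, in CNT 1 for 12, in control 1 for 7 and in control 3 for 2.

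**Figure D2:**
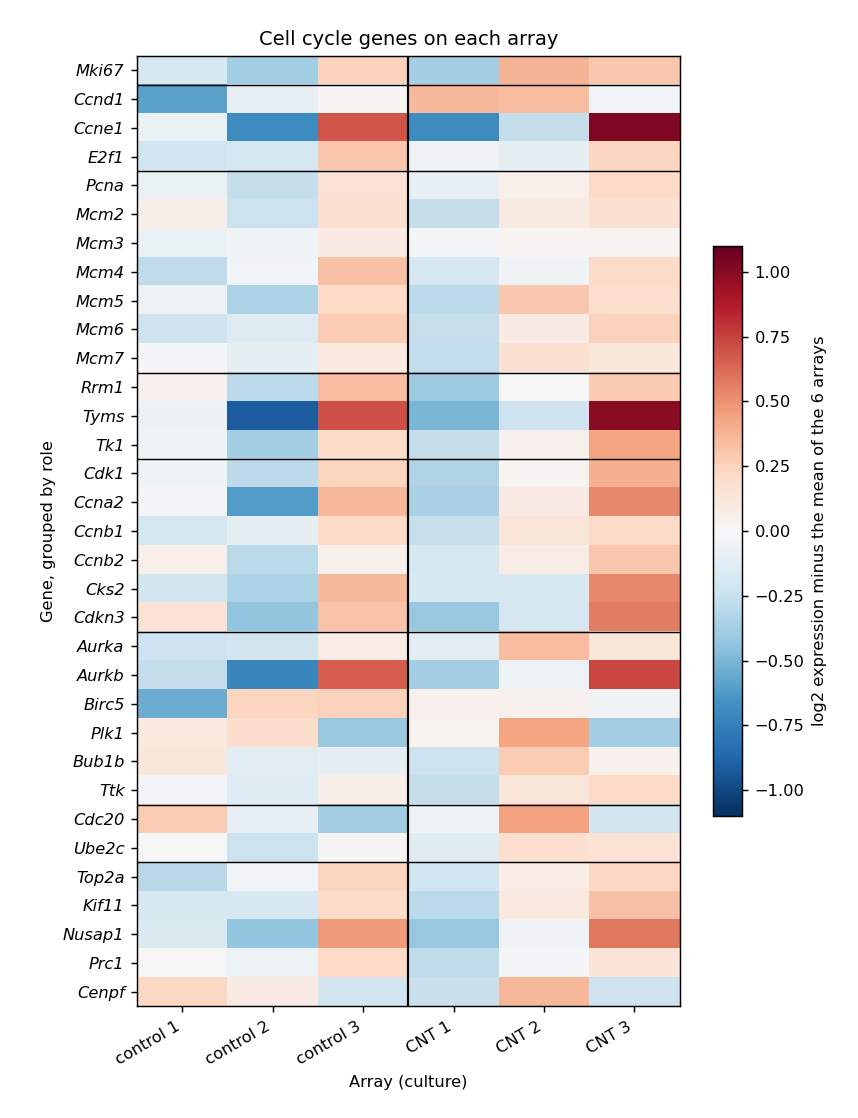
Log2 expression of the 33 cell cycle genes (rows, in groups of like role) on the 6 arrays (columns), each relative to the gene's mean over the arrays. Most rows are red in control 3 and CNT 3 and blue in control 2 and CNT 1, whereas Plk1, Cdc20 and Cenpf are blue in control 3 and CNT 3.

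Mki67 encodes Ki-67, the nuclear protein by which cycling cells are commonly counted. Its log2 expression was 11.91, 11.70 and 12.34 in control 1, 2 and 3 and 11.71, 12.46 and 12.38 in CNT 1, 2 and 3. Control 3, CNT 2 and CNT 3 were high, the other cultures low, and the groups overlapped. The log2 fold change was 0.20 (standard error, SE, 0.26, 95% interval -0.42 to 0.82, adjusted p = 0.999 from limma). Single cultures moved it from 0.06 (without control 2 or without CNT 2) to 0.44 (without CNT 1).

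Of the regulators of entry into S phase, Ccnd1 had the largest difference of all 33 genes. This gene encodes cyclin D1, the cyclin through which growth factors start the cycle. Its log2 expression was 12.35, 12.85 and 12.95 in control 1, 2 and 3 and 13.30, 13.28 and 12.91 in CNT 1, 2 and 3. CNT 3 lay just below control 3, so the groups overlapped, and control 1 was the lowest culture. The log2 fold change was 0.44 (fold 1.36, SE 0.20, 95% interval -0.04 to 0.93, adjusted p = 0.999 from limma, unadjusted p = 0.0648). The other probe sets of Ccnd1 gave 0.36 and 0.46. Without control 1 the log2 fold change was 0.26, and without both control 1 and CNT 2 it was 0.20. Ccnd1 was the single member at an unadjusted p under 0.05 in 3 of 14 alternatives, namely array weights, without control 3 and without CNT 3. Ccnd1 did not share the order of the other members, since CNT 1 was the highest culture by its brightest probe set and CNT 2 by the others.

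The mean of genes that mark microglia and macrophages was lowest in control 1, as Ccnd1 was. This was not particular to them. In all, 7 of the 33 members had their lowest value in control 1, and the mean of 15 neuron markers was lowest there too (-0.12 relative to its mean over the arrays). Cd68, a lysosomal protein of phagocytes, was at 13.06, 13.61 and 13.99 in control 1, 2 and 3 and at 14.01, 14.10 and 13.81 in CNT 1, 2 and 3. Aif1, which encodes Iba1, was at 11.98, 12.67 and 12.78 in control and at 12.87, 13.15 and 12.52 in CNT cultures, and Itgam, an integrin of the same cells, at 8.81, 10.49 and 10.84 and at 11.12, 10.62 and 10.57. Not all markers of the list were lowest in control 1. Csf1r, Cx3cr1 and P2ry12 were lowest in CNT 3 (11.81, 7.23 and 10.03, against 12.10, 7.71 and 10.81 in control 1). The log2 fold change was negative for P2ry12 (-0.07) and Mrc1 (-0.0092). Of the 18 measured markers of this list, 16 had a positive log2 fold change (88.9%, against 58.5% of all genes), and none passed the test. The groups did not overlap, with CNT higher, for 3 of the 18, against 5.94% of all genes, and 2 of the 18 were higher at an unadjusted p under 0.05, against 2.41%. The mean log2 level of the list ran from 11.87 to 12.55 in control and from 12.29 to 12.84 in CNT cultures. Its part in the values of Ccnd1 was not tested.

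The other regulators of this step had means close to each other in both groups. Ccne1, which encodes cyclin E1, was at 9.67, 9.05 and 10.43 in control and at 9.05, 9.48 and 10.76 in CNT cultures 1, 2 and 3. The span of 1.71 log2 between cultures stood beside a log2 fold change of 0.04 (SE 0.53). E2f1, the transcription factor that cyclin-dependent kinases set free, was at 9.14, 9.16 and 9.66 in control and at 9.31, 9.25 and 9.59 in CNT cultures, with a log2 fold change of 0.07 (SE 0.18). Both genes were highest in control 3 and CNT 3.

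**Figure D3:**
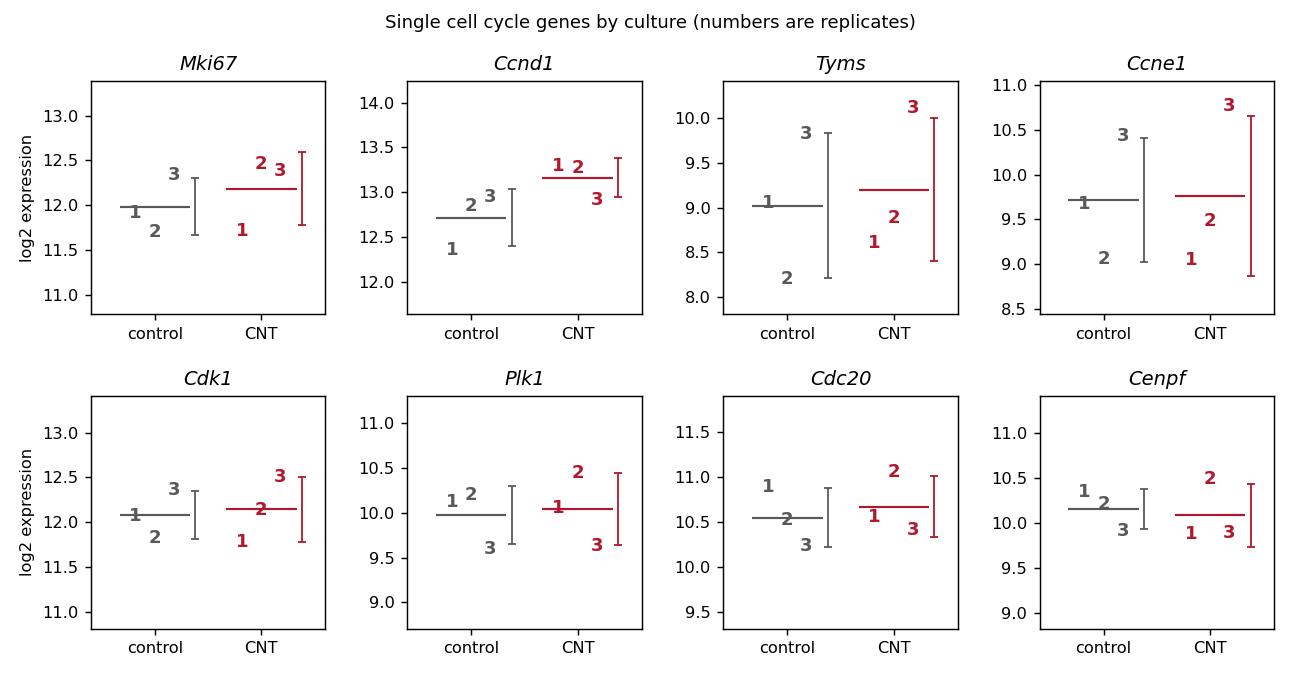
Log2 expression of 8 cell cycle genes in the control (grey) and CNT (red) cultures, where each number marks the value of that replicate, with the mean as a line and the SD as a bar (n = 3). Replicate 3 is highest in both groups for Tyms, Ccne1 and Cdk1 and lowest in both groups for Plk1 and Cdc20.

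The genes of the replication fork had a median log2 fold change of 0.02, which was -0.046 without CNT 3 and 0.15 without control 3. Mcm2 to Mcm7 encode the ring-shaped helicase that opens the DNA, and Pcna encodes the clamp that holds the polymerase on it. The log2 fold changes of these 7 genes ran from -0.01 for Mcm4 to 0.12 for Mcm5. Pcna was at 13.62, 13.43 and 13.85 in control and at 13.61, 13.75 and 13.91 in CNT cultures 1, 2 and 3 (log2 fold change 0.12, SE 0.15). Mcm5 was at 10.35, 10.06 and 10.63 in control and at 10.11, 10.70 and 10.59 in CNT cultures (log2 fold change 0.12, SE 0.21). The lowest cultures of both genes were control 2 and CNT 1. Mcm2, Mcm3, Mcm4, Mcm6 and Pcna were highest in control 3 and CNT 3, while Mcm5 and Mcm7 were highest in CNT 2.

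The mean of the 3 measured genes that supply nucleotides for replication had an SD of 0.48 log2 within groups. The 0.24 of all members is the SD of a mean over 33 genes, these 3 among them, so the 2 values are not alike. Tyms, the thymidylate synthase gene, was at 9.05, 8.20 and 9.82 in control and at 8.61, 8.89 and 10.11 in CNT cultures 1, 2 and 3. Its values spanned 1.91 log2 over the 6 arrays, the widest span of the 33 genes, and its log2 fold change was 0.18 (SE 0.54). Tk1, the thymidine kinase gene of S phase, was at 10.79, 10.46 and 11.04 in control and at 10.57, 10.88 and 11.26 in CNT cultures (log2 fold change 0.14, SE 0.23). All 3 probe sets of Tk1 were highest in control 3 and CNT 3. Rrm1, the large subunit of ribonucleotide reductase, had a log2 fold change of -0.07 (SE 0.23) and the same order. The probe sets shared by Rrm2 and Rrm2l1 had log2 fold changes of 0.09 and -0.16 and were likewise highest in control 3 and CNT 3. The SDs in control and in CNT cultures were 0.81 and 0.80 for Tyms, 0.29 and 0.35 for Tk1 and 0.31 and 0.35 for Rrm1.

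The kinase that drives mitosis and its partners followed the cultures in the same way. Cdk1 encodes this kinase, which binds cyclin A2 (Ccna2) and the cyclins B (Ccnb1, Ccnb2). Ccna2 was at 10.95, 10.35 and 11.33 in control and at 10.61, 11.05 and 11.50 in CNT cultures 1, 2 and 3 (log2 fold change 0.18, SE 0.32). Ccnb2 was at 11.68, 11.33 and 11.68 in control and at 11.43, 11.71 and 11.93 in CNT cultures (log2 fold change 0.13, SE 0.17). For both genes control 2 and CNT 1 were the low cultures. Cdk1 was at 12.07, 11.82 and 12.36 in control and at 11.78, 12.14 and 12.50 in CNT cultures, a log2 fold change of 0.06 (SE 0.22). Cks2, a small subunit of the kinase complex, and Cdkn3, a phosphatase that acts on cyclin-dependent kinases, had log2 fold changes of 0.13 (SE 0.27) and -0.03 (SE 0.31). In 5 of these 6 genes, all but Ccnb2, control 3 and CNT 3 were highest.

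The mitotic kinases did not follow a single order. Aurka, which encodes the kinase of the spindle poles, was at 10.33, 10.35 and 10.63 in control and at 10.43, 10.89 and 10.69 in CNT cultures 1, 2 and 3. Its log2 fold change of 0.23 (SE 0.16, 95% interval -0.15 to 0.61) was the second largest of the 33 genes, and CNT 1 lay below control 3. Aurkb, the kinase of the chromosomal passenger complex, was at 10.05, 9.60 and 10.98 in control and at 9.94, 10.26 and 11.05 in CNT cultures (log2 fold change 0.21, SE 0.43). Birc5, which encodes survivin of the same complex, had its lowest value, 9.55, in control 1 and lay between 10.05 and 10.34 in the other 5 cultures. Bub1b and Ttk, of the spindle assembly checkpoint, had log2 fold changes of 0.06 (SE 0.16) and 0.07 (SE 0.15).

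Plk1 and Cdc20 ran against the other genes. Plk1, the kinase of mitotic entry and exit, was at 10.12, 10.20 and 9.60 in control and at 10.05, 10.44 and 9.63 in CNT cultures 1, 2 and 3. Cdc20, which activates the anaphase-promoting complex, was at 10.89, 10.52 and 10.23 in control and at 10.55, 11.06 and 10.40 in CNT cultures. Control 3 and CNT 3 were the lowest arrays for both, an order shown by 2 of the 33 genes and 22.5% of all genes. All 5 probe sets of Cdc20 had these arrays as their lowest. Cenpf, a kinetochore protein, was at 10.35, 10.21 and 9.91 in control and at 9.87, 10.49 and 9.89 in CNT cultures, so that control 3 and CNT 3 were low beside CNT 1. The log2 fold changes were 0.07 for Plk1 (SE 0.26), 0.13 for Cdc20 (SE 0.24) and -0.07 for Cenpf (SE 0.21). Ube2c, the ubiquitin-conjugating enzyme of the anaphase-promoting complex, was at 11.82, 11.58 and 11.83 in control and at 11.68, 12.0005 and 11.98 in CNT cultures, with a log2 fold change of 0.14 (SE 0.13). CNT 2 was the highest array for Plk1, Cdc20, Cenpf and Ube2c, as for Mki67, Mcm5, Mcm7, Aurka and Bub1b.

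The genes of the spindle and of chromosome structure were close to the other mitotic genes. Top2a, the topoisomerase that untangles sister chromatids, was at 11.18, 11.45 and 11.73 in control and at 11.26, 11.56 and 11.71 in CNT cultures 1, 2 and 3 (log2 fold change 0.06, SE 0.19). Kif11, the motor that separates the spindle poles, was at 10.23, 10.22 and 10.61 in control and at 10.10, 10.50 and 10.72 in CNT cultures (log2 fold change 0.09, SE 0.20). Prc1, which bundles the microtubules of the central spindle, was at 11.64, 11.57 and 11.85 in control and at 11.35, 11.61 and 11.77 in CNT cultures. Its log2 fold change of -0.11 (SE 0.14) was the lowest of the 33 genes. Nusap1, another microtubule binder of the spindle, had a log2 fold change of 0.08 (SE 0.33) and, by both of its probe sets, its highest values in control 3 and CNT 3.

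Where a gene had several probe sets, the choice among them could turn the sign of a small difference. Of the 33 genes 8 had more than 1 probe set, and in 3 of these, Cdc20, Kif11 and Nusap1, the log2 fold changes had both signs. Those of Cdc20 ran from -0.14 to 0.13, those of Kif11 were 0.09 and -0.08, and those of Nusap1 were 0.08 and -0.05. For Cdc20 the value of -0.14 came from its dimmest probe set, while a brighter one (control mean 10.32) gave -0.06. The second probe set of Ccnb1 and that of Kif11 did not have their highest values in control 3 and CNT 3, whereas those of Top2a, Nusap1 and Ttk did. That of Ttk was dim, with a control mean of 5.14.

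Many other genes of the cycle were also highest in control 3 and CNT 3. Of 60 further genes of G1 and S phase 54 were measured. None passed the test, 41 had a positive log2 fold change (75.9%), the median was 0.13, and 2 genes (Cdc25a and Pold1) lay higher and 2 (Cdk4 and Orc5) lower in all CNT than in all control arrays, against 5.94% and 2.05% of all genes. In 38 of the 54 (70.4%, against 11.5% of all genes) control 3 and CNT 3 were the highest arrays, and in none the lowest. Leaving out CNT 3 gave a median of -0.11, leaving out control 2 gave -0.054 and leaving out control 3 gave 0.36. The genes of smallest p were Cdc25a, a phosphatase that activates cyclin-dependent kinases (log2 fold change 0.25, SE 0.12), Pold1, the catalytic subunit of DNA polymerase delta (0.17, SE 0.09), and E2f2 (0.46, SE 0.27).

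Of 86 further genes of G2 and mitosis 73 were measured, none passed and the median log2 fold change was 0.04, with 48 positive values. Kif22, a chromosome-bound motor, was the 1 gene of the 73 whose groups did not overlap, against 7.99% of all genes (log2 fold change 0.18, SE 0.09). Next in p were Cenpa, the centromeric histone (0.29, SE 0.20), and Sgo2, a protector of cohesion (-0.40, SE 0.27). In 49 of the 73 (67.1%, against 11.5% of all genes) control 3 and CNT 3 were highest, and in 2, Bub3 and Racgap1, lowest. Leaving out CNT 3 gave a median of -0.090, leaving out control 2 gave -0.069 and leaving out CNT 1 gave 0.19.

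Inhibitors of the cycle and genes of cell cycle exit had a median log2 fold change of 0.01 over 30 measured genes, 16 of them positive, and none passed. The smallest p belonged to Rbl1, a pocket protein that represses E2F targets (log2 fold change 0.45, SE 0.25), and to the CDK inhibitor genes Cdkn2c (0.17, SE 0.11) and Cdkn2d (0.16, SE 0.12). In 11 of the 30 (36.7%) control 3 and CNT 3 were highest. The median ranged from -0.096 to 0.092 when 1 array was left out, the lower value without control 2 and the higher without control 3. Glial mitogens and their receptors had a median of -0.04 over 26 measured genes, which turned to 0.034 without control 2 and was -0.10 without CNT 3, and none passed. Among them Csf2ra, a receptor subunit for a growth factor of macrophages, had a log2 fold change of 0.63 (SE 0.31), the fibroblast growth factor gene Fgf1 of -0.48 (SE 0.25) and Igf1r, the receptor of insulin-like growth factors, of -0.44 (SE 0.26). In 1 of the 26 control 3 and CNT 3 were highest.

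**Figure D4:**
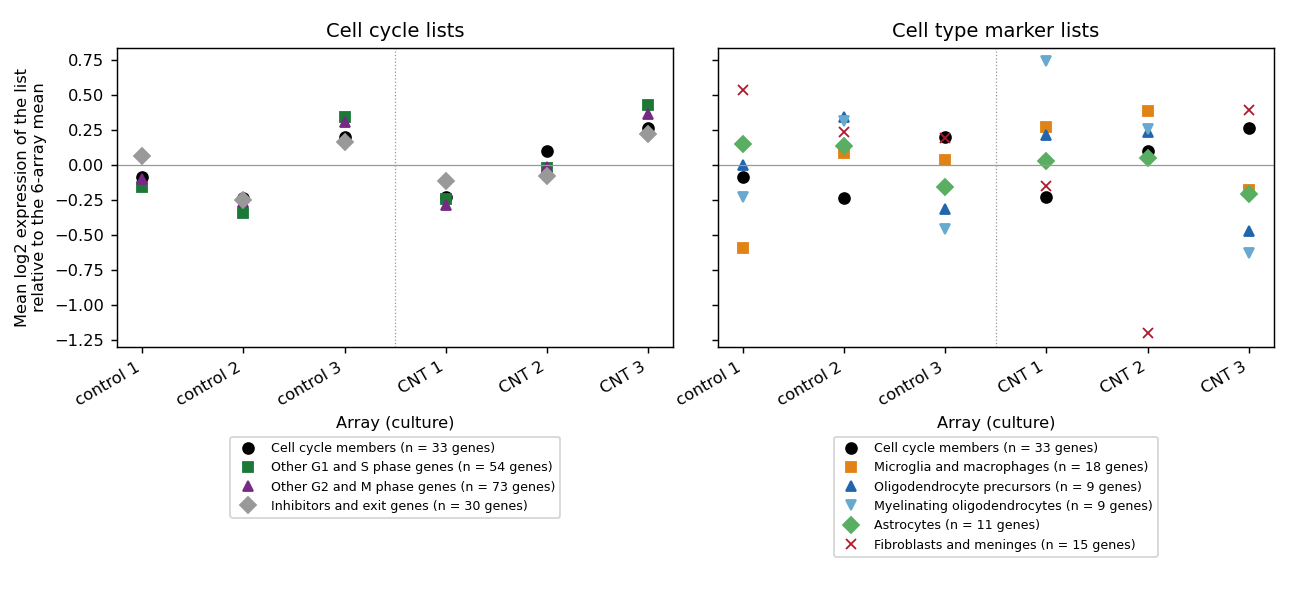
Mean log2 expression of gene lists on each array, relative to the mean over the 6 arrays, for lists of the cell cycle (left) and of cell type markers beside the cell cycle members (right). The members lie highest in control 3 and CNT 3 (0.20 and 0.26), where both oligodendrocyte lists are lowest.

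The means of the markers of oligodendrocytes, their precursors and astrocytes were lowest in control 3 and CNT 3. Not every marker followed its list. Pdgfra, of the precursor list, was at 12.92 in control 3 and highest of all arrays in CNT 3 (13.60). Gjb6, of the astrocyte list, was at 5.10 in control 3 and also highest in CNT 3 (6.62). The 9 measured markers of oligodendrocyte precursors stood at -0.31 in control 3 and -0.47 in CNT 3, relative to their mean over the arrays, against -0.0034 to 0.34 in the other cultures, and 6 of the 9 were lowest in these arrays. Their mean log2 level ran from 10.72 to 11.37 in control and from 10.56 to 11.27 in CNT cultures. The 9 markers of myelinating oligodendrocytes stood at -0.45 and -0.63 in the same arrays, 7 of 9 were lowest there, and their mean log2 level ran from 11.29 to 12.05 and from 11.11 to 12.48. The 11 astrocyte markers stood at -0.16 and -0.21, with 5 of 11 lowest there and mean log2 levels of 11.50 to 11.81 and 11.45 to 11.70. Of all genes, 22.5% were lowest in these arrays, as were 4 of the 9 neural progenitor and ependymal markers. In these arrays the mean of the cell cycle genes was high where the means of the oligodendrocyte and astrocyte lists were low. The 15 fibroblast and meningeal markers, all with a negative log2 fold change and none past the test, included 2 that did not overlap between the groups (Fbln2 and Fbln5, both lower in CNT, against 2.05% of all genes), and the same 2 had an unadjusted p under 0.05 (against 0.71%). The mean of the list stood at 0.19 in control 3 and 0.39 in CNT 3, the lowest value was -1.20 in CNT 2, and their mean log2 level ran from 12.39 to 12.73 in control and from 11.00 to 12.59 in CNT cultures. Relative to their means, the microglia markers stood at 0.03 in control 3 and -0.18 in CNT 3, the neural progenitor and ependymal markers at 0.0015 and -0.14, and the endothelial and mural markers at -0.02 in both. The 7 measured Schwann cell markers stood at 0.05 in control 3 and 0.21 in CNT 3, the highest array of each group. Control 3 and CNT 3 were the highest arrays for 2 of these 7. No marker is at 0 on this scale, and the part of these cell types in the order of the cell cycle genes was not tested.

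The mean log2 level of the 15 neuron markers ran from 8.98 to 9.21 in control and from 9.01 to 9.13 in CNT cultures. The mean over all genes was higher, at 9.29 to 9.33 in control and 9.34 in CNT cultures. Single neuron markers had control means from 5.97 (Syt1) to 11.71 (Gap43). These levels do not give the share of neurons in the cultures. The beta-actin 3' to 5' difference, a sign of RNA quality, was 0.66 log2 in control 3 and 1.72 in CNT 3, the cultures in which the cell cycle genes were high, and 0.62 in control 2 and 0.92 in CNT 1, in which they were low. It was 2.20 in both control 1 and CNT 2. Its part in the order of the cultures was not tested.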

How the data were processed

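Gene expression was measured in 3 control and 3 CNT cultures, grouped by the titles in the labels. The authors deposited log2 expression values made with RMA, whose version is not given in the sources used here, for the probe sets of the manufacturer, although the methods name EntrezGene custom files. RMA scales the arrays to a common distribution, so a shift shared by all genes cannot be seen. Depth does not apply to arrays, and their number limits the precision.

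Probe sets paired with several genes (436) or none (9780) and 57 control probe sets were left out of 31099. For each of 14217 genes the probe set brightest on average was kept. The test was limma (version 3.58.1, under R 4.3.3; lmFit, then eBayes) without pairing, and p-values were adjusted by Benjamini-Hochberg over all 14217 genes, with 0.05 as the threshold. The rank product of the methods was not used, since its error rate resamples genes. The fit was tested on simulated data. An exact two-sided permutation test of 3 against 3 cannot go below 0.1. A list score is the mean over its genes on an array.

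The members and lists were chosen with earlier results of these data known. Values on every array were given by rule for Mki67, Top2a, Pcna and the 2 members of smallest p in each role, and up to 3 genes of smallest p were named from the other lists. Ccne1, Cdk1, Plk1, Cenpf, single cell type markers and genes named for their order over the cultures or for groups that did not overlap were chosen after their values were seen. The alternatives were quantile normalization, median centring, removal of the dimmest 30% of genes, averaging the probe sets of a gene, a block on the replicate number, array weights, eBayes with trend and robust settings, leaving out each array and leaving out control 1 with CNT 2.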

Additional observations from a re-analysis of the deposited data

How the results depend on the processing

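No cell cycle gene passed the adjusted threshold under any of the 14 alternatives. Over all genes, 2 passed without control 3 (Mx1 and Prl6a1, both higher) and 0 under the others, where leaving out 1 array gave 0 to 2. At an unadjusted p under 0.05 the 342 higher and 101 lower genes became 532 and 223 with array weights, 498 and 179 with the replicate block, 237 and 184 with median centring, 248 and 168 with quantile normalization, 227 and 67 without the dimmest 30% of genes and 73 and 43 without control 1 and CNT 2. They ranged from 153 to 670 and from 53 to 412 when 1 array was left out. The difference of the cell cycle mean was 0.09 (0.0861) and ranged from -0.024 to 0.22 when 1 array was left out, and the median from -0.038 to 0.20.

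The sign of 10 of the 16 members given by rule turned in 23 of 224 values. The 224 include values that could not change. The trend and robust settings, the replicate block and the removal of dim genes leave the log2 fold change of these members as it is. Averaging probe sets does so for genes with 1 probe set. The share of turned signs is therefore no measure of their stability. With array weights it turned for Tyms (-0.076), Top2a (-0.017) and Kif11 (-0.015), and without control 1 and CNT 2 for Top2a (-0.10) and Kif11 (-0.0014). When 1 array was left out, the log2 fold change ranged from -0.035 to 0.24 for E2f1, -0.020 to 0.30 for Mcm5, -0.28 to 0.58 for Tyms, -0.038 to 0.31 for Tk1, -0.087 to 0.40 for Ccna2, -0.11 to 0.59 for Aurkb, -0.066 to 0.30 for Cdc20, -0.078 to 0.20 for Top2a, -0.051 to 0.26 for Kif11 and -0.21 to 0.0036 for Prc1. The sign did not turn for Mki67 (0.061 to 0.44), Ccnd1 (0.26 to 0.57), Pcna (0.018 to 0.23), Ccnb2 (0.0066 to 0.25), Aurka (0.12 to 0.35) and Ube2c (0.060 to 0.24), each of which moved by over 1.5 times. The cause was not tested.

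The labels number the replicates of both groups from 1 to 3. The deviations of same-numbered arrays from their group means correlated across genes at -0.13, 0.36 and 0.51, so the arrays share a number and no pairing was taken as given. Control 2 correlated best with CNT 1 (0.68). With the replicate block no gene passed. The median of the cell cycle members was again 0.07, since a block on balanced groups cannot change a difference of means. The order of the arrays under median centring and quantile normalization was examined after the data were seen.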
